A study of Mus musculus with 16 samples.

Results

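Collagens are the structural proteins of the extracellular matrix, and their genes were examined here in mouse clear cell sarcoma for the fusion protein EWSR1::ATF1, for RNA polymerase II and for acetylated chromatin. The genes were all protein-coding genes of the GENCODE vM21 annotation whose symbol is Col, a number, the letter a and a number, and this rule gave 44 of 21938 protein-coding genes. The rule used the annotation only and no measured value. Of the 44 genes, 11 encode chains of fibrillar collagens and 33 encode chains of other types.

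The tumours came from mice of mixed 129/SvJ and C57Bl/6 background that carried a V5-tagged cDNA of the human type 1 EWSR1::ATF1 fusion in the Rosa26 locus, behind a stop cassette flanked by loxP sites and followed by a green fluorescent protein on the same transcript. The soluble recombinase TATCre, injected into the hindlimb at 4 weeks of age, removed the stop cassette. Every sample is labelled as tumour with the genotype EWSR1::ATF1, so there was no group without the fusion. Chromatin immunoprecipitation sequencing (ChIP-seq) was carried out with antibodies against V5, RNA polymerase II (here called Pol2) and H3K27ac, a histone acetylation that marks promoters and enhancers in use, with 4 samples per antibody and 4 of input chromatin. The study describes the polymerase target as the phosphorylated form, so a missing Pol2 peak does not show that polymerase was absent. The tumours are bulk tissue, so the cells in which a peak arose are not known, and a mark in fewer cells cannot be told apart from a weaker mark in all cells.

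Each antibody was represented by 1 pooled peak list with no values per sample. The V5 list held 10665 peaks, the Pol2 list 20375 and the H3K27ac list 27552. The study describes both a larger set of V5 sites and a set of the size of this list, so a V5 peak missing here may be present in the larger set, which was not used here. The lists carry no read counts, so the depth behind a peak is unknown, and a missing peak means only that none was called in the pooled data. With 1 list per antibody there was no replicate error to test against. Shares are therefore set beside the same share over all protein-coding genes as a description, with 95% Wilson intervals that cover counting error over genes only. Each peak has a score from the authors with no stated scale, so scores and ranks (1 being the highest score) were compared only within a list. Among marker genes of the tissues a hindlimb tumour can hold, promoter peaks of H3K27ac were found at 5 of 6 fibroblast genes, 6 of 6 macrophage and leukocyte genes, 3 of 5 endothelial genes, 1 of 6 skeletal muscle genes, 3 of 5 cartilage genes, 2 of 5 bone genes, 2 of 5 keratinocyte genes and 3 of 7 melanocytic and clear cell sarcoma genes. For Pol2 the corresponding counts were 2, 2, 1, 2, 3, 1, 1 and 2. V5 promoter peaks were present at 3 of these 45 genes, Sox9 of cartilage (score 94), Alpl of bone (76) and the melanocytic Dct (218). Over all 45 marker genes the shares were 6.67% for V5, 31.1% for Pol2 and 55.6% for H3K27ac, none of them above the shares over all protein-coding genes given with the first comparison. Sox10, a defining gene of the melanocytic lineage and of clear cell sarcoma, had no promoter peak in any list, and Mitf, which encodes the melanocyte regulator of that name, had Pol2 (score 191) and H3K27ac (score 372) but no V5 promoter peak. Within its body Mitf held 3 V5 and 4 H3K27ac peaks. Pmel, a further gene of this list, had Pol2 (score 1281) and H3K27ac (score 822) promoter peaks without V5. Whether a neighbouring gene shared the Pmel peaks was not examined. How much each of these cell types contributed to the collagen peaks was not tested.

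A collagen molecule is a triple helix of chains that are made on the rough endoplasmic reticulum, hydroxylated, folded with chaperones and secreted. Fibrillar collagens then assemble into the cross-linked fibrils of bone, tendon, skin and cartilage. The other types form the sheets of basement membranes, coat or link the fibrils, form beaded filaments around cells, or span the cell membrane. Fibroblasts, osteoblasts and chondrocytes are the classical sources of fibrillar collagens, and many tumours hold a collagen-rich stroma made by both tumour and host cells.

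The first comparison asked whether the fusion, Pol2 and acetylation lay at the collagen promoters, taken as the windows within 3 kb of any annotated transcription start site (TSS) of a gene. A V5 promoter peak was found at 2 of 44 collagen genes, Col12a1 and Col16a1, which is 4.55% (Wilson 95% interval 1.26 to 15.1). The share was 16.6% of all protein-coding genes, which lies above this interval. Pol2 promoter peaks were present at 19 collagen genes (43.2%) and at 53.5% of all protein-coding genes. H3K27ac promoter peaks were also present at 19 collagen genes (43.2%), compared with 58.6% of all protein-coding genes. The interval of the collagen share (29.7 to 57.8) contains the background share for Pol2 and ends just below that for H3K27ac. The wider window of 5 kb raised the V5 count to 6 of 44 (13.6%), by adding Col3a1, Col4a1, Col4a2 and Col6a1, and moved the share over all protein-coding genes to 17.9%. The gap between the shares was thus smaller at 5 kb than at 3 kb.

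Promoter peaks of both Pol2 and H3K27ac, the usual combination at a transcribed gene, were found at 15 collagen genes (34.1%), compared with 52.2% of all protein-coding genes. V5 joined them at 2 of these 15 (13.3%, Wilson 95% interval 3.74 to 37.9) and at 30.4% of all protein-coding genes with both marks, which lies within this interval. Of all protein-coding genes 15.9% had promoter peaks in all 3 lists, and 2 collagen genes (4.55%) did. In the other direction, 21 collagen genes (47.7%) had no promoter peak in any list, compared with 39.9% of all protein-coding genes. A further 4 collagen genes (Col2a1, Col6a3, Col11a1 and Col15a1; 9.09%) had H3K27ac without Pol2, compared with 6.40% of all protein-coding genes. The last 4 (Col5a3, Col7a1, Col17a1 and Col20a1; 9.09%) had Pol2 without H3K27ac, a pattern seen at 1.34% of all protein-coding genes.

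**Figure D1:**
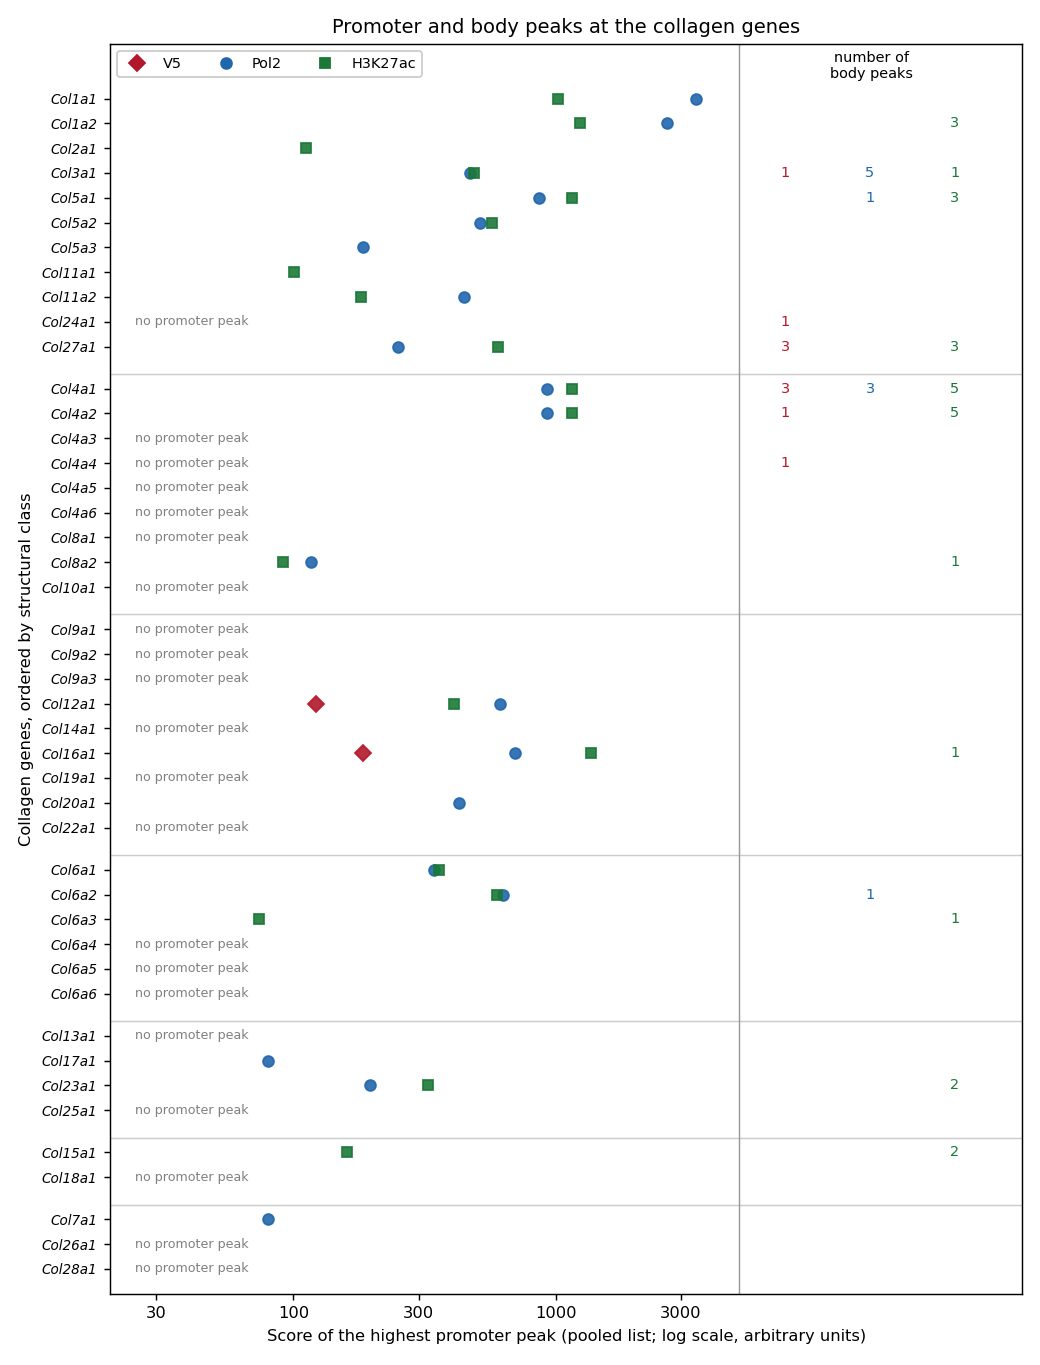
Each row is 1 of the 44 collagen genes, ordered from top to bottom as fibrillar, network, fibril-associated, beaded filament, transmembrane, multiplexin and other types. Points give the score of the highest promoter peak in each pooled list (log scale, arbitrary units, comparable within a list only), and the columns at the right count body peaks in the colour of the list. V5 diamonds are present at Col12a1 and Col16a1 only, while 21 genes have no promoter peak.

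A larger share of the fibrillar than of the other collagen genes carried Pol2 and H3K27ac. Pol2 promoter peaks were found at 8 of 11 fibrillar genes (72.7%, Wilson 95% interval 43.4 to 90.3) and at 11 of 33 others (33.3%, 19.8 to 50.4). For H3K27ac the counts were 9 of 11 (81.8%, 52.3 to 94.9) and 10 of 33 (30.3%, 17.4 to 47.3), and these intervals do not overlap. The intervals treat genes that share peaks, such as Col4a1 and Col4a2, as independent, so they describe the split and do not test it. The shares over all protein-coding genes (53.5% for Pol2 and 58.6% for H3K27ac) lie within both fibrillar intervals and above both intervals of the other collagen genes. Both marks were present at 7 fibrillar genes and at 8 others. No promoter peak of any list was found at 1 fibrillar gene, Col24a1, and at 20 of the 33 others (60.6%). V5 promoter peaks went the other way and were found at 0 of 11 fibrillar genes (upper bound of the interval 25.9%) and at 2 of 33 others (6.06%, 1.68 to 19.6), and these intervals overlap.

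**Figure D2:**
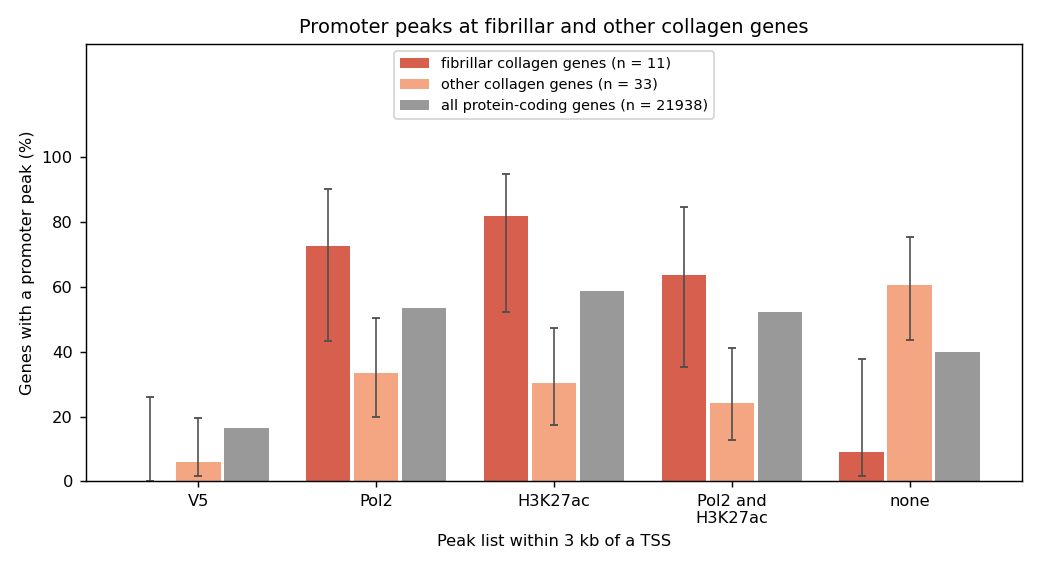
Bars give the percentage of genes with a promoter peak in each list, with Pol2 and H3K27ac together, and with none, for the 11 fibrillar collagen genes, the 33 other collagen genes and the 21938 protein-coding genes. Error bars are 95% Wilson intervals and cover counting error over genes only. The fibrillar bars for Pol2 (72.7%) and H3K27ac (81.8%) stand above those of the other collagen genes (33.3% and 30.3%).

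Among the fibrillar genes, Col1a1 and Col1a2, which encode the chains of type I collagen, the main collagen of bone, tendon and skin, had the highest Pol2 scores of all 44. Col1a1 (chr11:94936224-94953042, GRCm38, the assembly called mm10) was covered from end to end by a single Pol2 peak 18.9 kb wide with a score of 3415 (rank 575 of 20375), which started upstream of the gene and ran 1.66 kb past its 3′ end. By width this peak ranked 55 in the list, and lower peaks (97 and 98) lay just upstream. An H3K27ac peak 18.4 kb wide with a score of 1024 covered 87.6% of Col1a1 and ranked 21 of 27552 by width. Col1a2 (chr6:4504814-4541544) held a Pol2 peak of 3.88 kb at its start (score 2658, rank 1058) and a second of 33.6 kb (score 623, width rank 16) that ran to 1.44 kb past the gene. Together Pol2 peaks covered 98.1% of Col1a2 and H3K27ac peaks 41.5%.

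Such coverage was uncommon. Pol2 peaks covered at least 90% of the span of 2 collagen genes (4.55%), compared with 1.41% of all protein-coding genes, most of which are short. Among the 11858 protein-coding genes of at least 15 kb, 29 (0.245%) were covered to this extent, and Col1a1 and Col1a2 are 2 of them. The 15-kb limit, just below the 16.8 kb of Col1a1, was chosen after the values were seen. Col3a1, whose product forms the reticular fibres of skin and vessels, was next among the collagens, with 11 separate Pol2 peaks that covered 31.9% of its 38.2 kb, and 3 collagen genes reached a coverage of 25% (6.82%, against 7.30% of all protein-coding genes). Every other collagen gene had at most 10.7% of its span covered. A Pol2 peak lay over the 3′ end of 5 collagen genes (Col1a1, Col1a2, Col3a1, Col4a1 and Col6a2; 11.4%), compared with 9.58% of all protein-coding genes and 8.25% of those of at least 15 kb. In all 5 the peak extended beyond the annotated end, by 1.33 to 2.04 kb.

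Neither type I gene had a V5 peak at its promoter or in its body. The nearest V5 peak lay 62.9 kb upstream of Col1a1 (score 153) and 87.1 kb upstream of Col1a2 (score 113), outside any protein-coding gene, and each of these peaks overlapped peaks of H3K27ac (718 and 732) and Pol2 (107 and 117). Both genes lay in clusters of acetylation, defined as at least 3 H3K27ac peaks stitched over gaps of up to 12 kb. The Col1a2 cluster was 54.8 kb wide with 10 H3K27ac peaks and the Col1a1 cluster 46.2 kb wide with 6, and they contained 0 V5 peaks. Of 95 clusters with at least 10 H3K27ac peaks genome-wide, 16 (16.8%) held no V5 peak, and the Col1a2 cluster is 1 of these. This limit of 10 peaks, the number in the Col1a2 cluster, was chosen after the values were seen. In all, 11 collagen genes (25%) lay in 12 clusters, compared with 15.9% of all protein-coding genes, and 7 of the 12 clusters (58.3%) held a V5 peak, compared with 61.6% of all clusters.

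Col3a1 (chr1:45311538-45349706) was the fibrillar gene with the nearest V5 peak. Its promoter had Pol2 (highest score 473) and H3K27ac (490), and a V5 peak of 0.56 kb with a score of 76 (rank 9387 of 10665) lay within the gene, 4.71 kb from its 5′ end, over an H3K27ac peak (334) and a Pol2 peak (80). This V5 peak held the sequence TGAGGTCA, a variant of the site bound by the ATF and CREB family. Col5a2, the neighbour of Col3a1 on the opposite strand with 24.6 kb between the genes, had promoter peaks of Pol2 (515) and H3K27ac (573) and the same V5 peak as its nearest, 77.1 kb away. Col5a1, which with Col5a2 encodes the type V chains that start fibril assembly, had Pol2 (866) and H3K27ac (1152) at its promoter and no V5 peak within 100 kb. H3K27ac promoter peaks of at least 5 kb, found at 2.76% of all protein-coding genes, were present at 5 collagen genes (11.4%), namely Col1a1, Col1a2, Col5a1 and the pair Col4a1 and Col4a2, which share one. The 5-kb limit was chosen after the values were seen, and the Col5a1 peak was exactly 5 kb wide.

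The remaining fibrillar genes are Col2a1, Col5a3, Col11a1, Col11a2, Col24a1 and Col27a1. Col2a1, which encodes the main collagen of cartilage, had H3K27ac peaks of low score (112 and 65) 14.9 and 2.83 kb downstream of its 5′ end and no Pol2 peak. Col11a1, a chain of the cartilage collagen XI, had H3K27ac at a score of 101 and no Pol2. Col11a2, which encodes another chain of it, had Pol2 (448) and H3K27ac (181), but this Pol2 peak also covered the 3′ end of the gene upstream, Rxrb, and cannot be assigned to either gene. Col5a3 had Pol2 at a score of 184, centred on its own start, without H3K27ac. Col27a1 had Pol2 (250) and H3K27ac (601), and Col24a1 had no promoter peak.

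The promoter sequences were read from RefSeq (build GRCm38.p6) for 35 of the 44 genes, as the 250 bases before the start. Those not in the table were Col1a1, Col2a1, Col4a3, Col5a2, Col9a3, Col12a1, Col14a1, Col22a1 and Col26a1. The searched letters were TGACGTCA, the full site of the ATF and CREB family (CRE), its variants of the form TGANNTCA, and the AP1 site TGAGTCA with its reverse complement TGACTCA, all on both strands; the first 2 forms read the same family of letters on either strand, and a 7-letter AP1 site cannot be an 8-letter TGANNTCA site. The full CRE was found in 0 of 35 collagen promoters, compared with 1.98% of 16522 protein-coding promoters in the table. A variant was found in 2 (5.71%, against 9.17%), at Col5a3 and Col6a3, and an AP1 site in 1 (2.86%, against 4.02%), at Col6a1. TATAAA on the strand of the gene, the core letters of a TATA box, was found in 5 (14.3%, against 8.08%). The median GC content was 58.8%, against 55.6%. The promoters of Col3a1 and Col5a3 are shown because both carried Pol2 and no V5, the first with none of the fusion-type letters and the second with a variant. Capitals mark TATAAA in Col3a1 and the TGANNTCA variant in Col5a3.
Col3a1 promoter, chr1:45311288-45311537, plus strand: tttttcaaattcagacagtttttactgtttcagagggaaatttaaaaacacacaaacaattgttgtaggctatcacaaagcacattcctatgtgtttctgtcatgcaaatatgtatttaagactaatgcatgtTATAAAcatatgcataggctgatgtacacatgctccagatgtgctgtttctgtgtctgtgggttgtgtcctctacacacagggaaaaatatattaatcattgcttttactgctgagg
Col5a3 promoter, chr9:20815068-20815317, minus strand: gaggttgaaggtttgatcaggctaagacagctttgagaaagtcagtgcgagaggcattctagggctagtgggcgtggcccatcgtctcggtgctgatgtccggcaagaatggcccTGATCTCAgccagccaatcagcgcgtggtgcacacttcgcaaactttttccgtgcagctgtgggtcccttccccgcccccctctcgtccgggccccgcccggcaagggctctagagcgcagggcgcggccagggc

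Of the 9 network-forming collagen genes, 3 had promoter peaks of both Pol2 and H3K27ac and 6 had none in any list. Col4a1 and Col4a2 encode the chains of type IV collagen found in nearly all basement membranes and lie head to head on chromosome 8, with 21 bp between their 5′ ends. They shared Pol2 peaks with scores of 928 and 89 and an H3K27ac peak of 6.68 kb with a score of 1155, and a peak in this shared window cannot be assigned to one gene of the pair. Col4a1 held 3 V5 peaks in its introns, with scores of 185, 104 and 67, at 5.15, 62.8 and 57.3 kb from its 5′ end. All 3 overlapped H3K27ac and none overlapped Pol2. Col4a2 held 1 V5 peak (score 277) in an intron 70.0 kb from its 5′ end, also over H3K27ac (203) and not over Pol2. The pairs Col4a3 and Col4a4 (72 bp between the 5′ ends) and Col4a5 and Col4a6 (1309 bp), which encode chains of the basement membranes of the kidney filter and some other tissues, had no promoter peak in any list.

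Col4a4 nevertheless held the highest-scored V5 peak of any collagen gene, with a score of 934 (rank 1338). It lay in an intron, 104 kb from the 5′ end, and overlapped neither H3K27ac nor Pol2. It was the 1 collagen peak of 12 with the full CRE, at chr1:82482937-82482944, with a TGAGGTCA variant 6 bases further on and an AP1 site elsewhere in the peak. The V5 peak in Col24a1 (score 218) likewise overlapped neither mark. Of the remaining network genes, Col8a2, a chain of the hexagonal network under the corneal endothelium, had Pol2 (117) and H3K27ac (91), and Col8a1 and Col10a1, the collagen of hypertrophic cartilage, had no promoter peak.

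Both collagen genes with a V5 promoter peak in the 3-kb window encode fibril-associated collagens, which attach to the surface of fibrils, and the 4 genes added by the 5-kb window belong to other classes. Col12a1 (chr9:79598991-79718831, minus strand), a component of tendon and muscle matrix, had a V5 peak of 0.75 kb that covered its 5′ end, with a score of 122 (rank 7874). It overlapped Pol2 (score 614) and H3K27ac (score 410), and it held none of the searched motifs. Col16a1 (chr4:130047840-130099283) had a V5 peak with a score of 185 (rank 6102) that lay in an intron 27.5 kb from the 5′ end, 1.41 kb from the start of a shorter transcript, over a Pol2 peak (107) and no H3K27ac. The 5′ end of Col16a1 itself had Pol2 (697) and the highest-scored H3K27ac promoter peak of the collagens (1367), without V5. When the 5′ end of each gene alone was used, Col12a1 was the 1 collagen gene with V5 (2.27%), compared with 14.3% of all protein-coding genes. At Col16a1 V5 and a Pol2 peak thus lay together near an internal start site, and the H3K27ac promoter peaks lay elsewhere. The cartilage genes Col9a1, Col9a2 and Col9a3 and Col14a1, Col19a1 and Col22a1 had no promoter peak. Col20a1 had a Pol2 peak (score 426, 12.4 kb) that covered the 3′ end and a TSS of the neighbouring Arfgap1, and it cannot be assigned to either gene.

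Col6a1, Col6a2 and Col6a3 encode the chains of type VI collagen, which forms beaded filaments around muscle and other cells. Pol2 and H3K27ac were present at Col6a1 (344 and 359) and at Col6a2 (629 and 598). Col6a3 had H3K27ac of low score (74) and no Pol2. A V5 peak (score 201) lay 4.01 kb upstream of Col6a1 over an H3K27ac peak (397), and the nearest V5 peak to Col6a2 was the same one, 107 kb away. Col6a4, Col6a5 and Col6a6, which encode alternative chains, had no promoter peak. Of the transmembrane collagens, Col23a1 had Pol2 (196) and H3K27ac (327), Col17a1, a component of the hemidesmosomes of skin, had a Pol2 peak (80) near its 3′ end, 43.9 kb from its 5′ end, that covered 7.39% of the gene, and Col13a1 and Col25a1 had none. A V5 peak (141) just past the 3′ end of Col23a1 lay at the promoter of Phykpl. Of the multiplexins, which lie in basement membrane zones, Col15a1 had H3K27ac alone (highest score 160) and Col18a1, the source of endostatin, had no promoter peak. Col7a1, the collagen of the anchoring fibrils of skin, had 1 Pol2 peak (80) 1.74 kb upstream, close to a start of Uqcrc1, and Col26a1 and Col28a1 had none. Of the 4 collagen genes with Pol2 but no H3K27ac, Col5a3 was thus the 1 whose Pol2 peak covered its own 5′ end with no other protein-coding TSS within 3 kb of it.

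**Figure D3:**
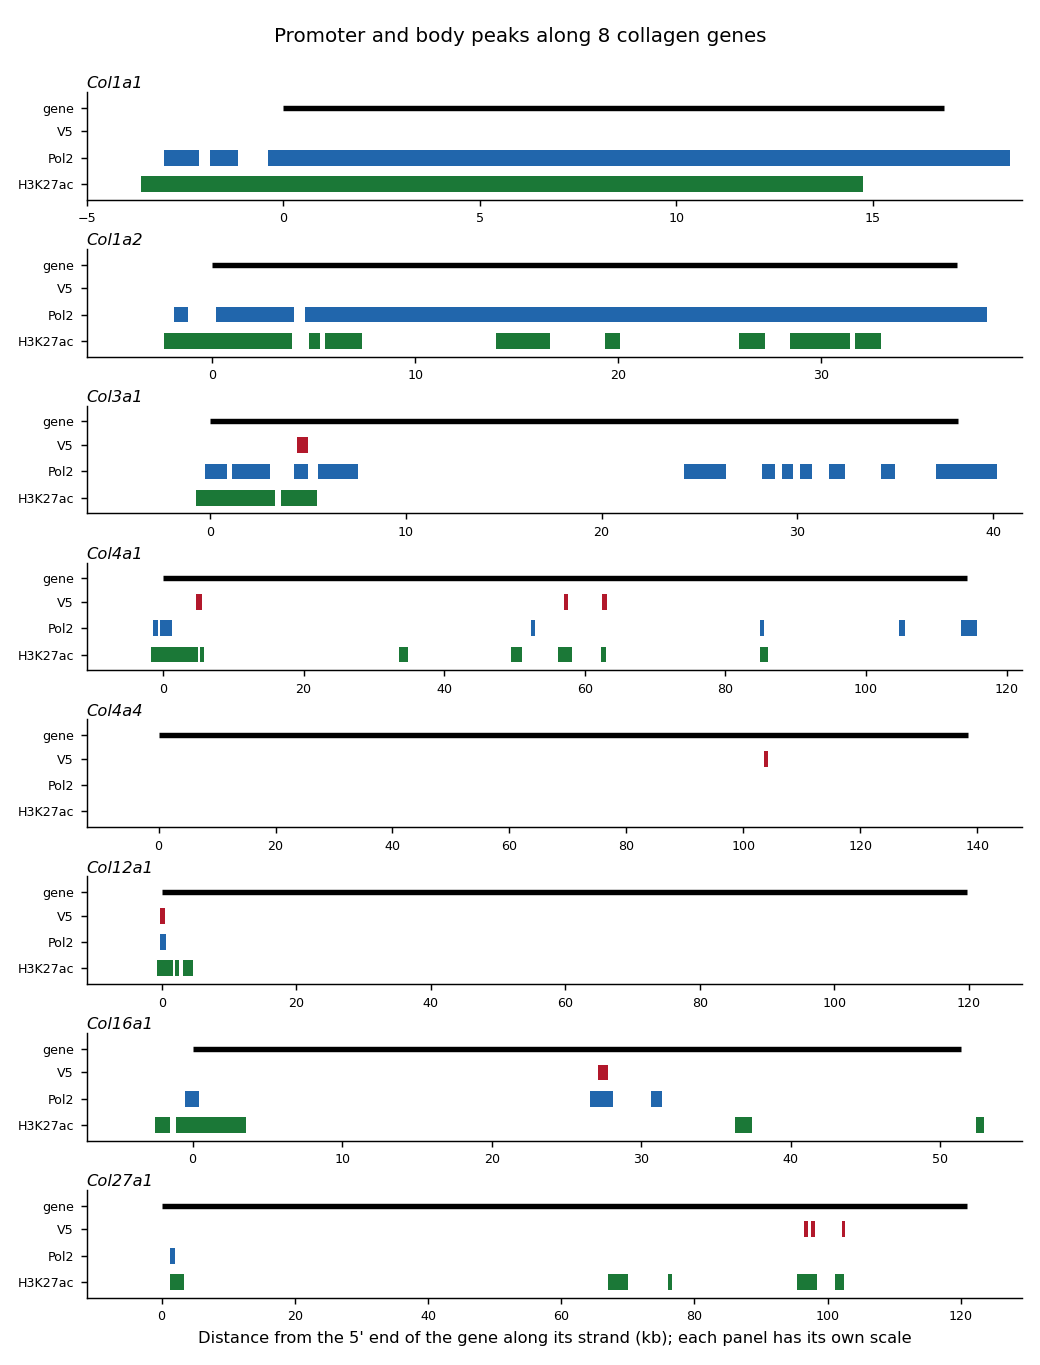
Horizontal bars show the V5, Pol2 and H3K27ac peaks assigned to 8 collagen genes by distance in kb from the 5′ end of the gene along its strand, with the gene as a black line and a separate scale for each gene. Very narrow peaks are drawn at a minimum width of 0.4% of the gene. Pol2 spans Col1a1 and Col1a2 without V5, V5 peaks lie within acetylated introns of Col4a1 and Col27a1, and the V5 peak of Col4a4 stands alone.

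V5 peaks in gene bodies were counted next, since the fusion also binds away from promoters. A body peak overlapped the gene and no promoter window of it. V5 body peaks were found in 6 collagen genes (Col3a1, Col4a1, Col4a2, Col4a4, Col24a1 and Col27a1; 13.6%, Wilson 95% interval 6.40 to 26.7), compared with 7.10% of all protein-coding genes. H3K27ac body peaks were found in 11 (25%, against 13.8%) and Pol2 body peaks in 4 (9.09%, against 11.2%). The Pol2 count depended on the start sites, since with the 5′ end alone as promoter it was 8 (18.2%, against 18.1%) and with the TSSs of protein-coding transcripts 7 (15.9%, against 14.5%). With all TSSs, the body shares of the fibrillar genes were 27.3% for V5, 18.2% for Pol2 and 36.4% for H3K27ac. Those of the other collagen genes were 9.09%, 6.06% and 21.2%. Collagen genes are long, with a median span of 114 kb against 17.4 kb for all protein-coding genes, so the body shares were also set beside genes of similar length. Of the 26 collagen genes of at least 100 kb, 5 (19.2%) had a V5 body peak, compared with 34.6% of the 2492 protein-coding genes of that length. For H3K27ac the shares in this class were 23.1% and 42.9%. Among genes of 20 to 50 kb the collagen share was the higher one, with 1 of 11 (9.09%) against 5.09% for V5 and 3 of 11 (27.3%) against 15.6% for H3K27ac. Among genes of 50 to 100 kb, where there were 3 collagen genes, V5 body peaks were found in 0 (13.2% of protein-coding genes) and H3K27ac body peaks in 2 (66.7%, against 27.7%). Per 100 kb of gene span, collagen genes held 0.224 V5 peaks, 0.746 Pol2 peaks and 1.08 H3K27ac peaks, and all protein-coding genes 0.663, 1.90 and 2.18.

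The promoter shares were divided by gene length in the same way. Of the collagen genes of at least 100 kb, 26.9% had a Pol2 promoter peak and 34.6% an H3K27ac promoter peak, whereas 59.1% and 70.2% of the protein-coding genes of that length had them. Of the 11 collagen genes of 20 to 50 kb, 9 (81.8%) had Pol2, compared with 63.0% of protein-coding genes of that length. In the same class 6 (54.5%) had H3K27ac, against 68.9%, and 0 had V5, against 18.7%. The median span of the fibrillar genes was 45 kb and that of the others 114 kb, and both classes were present on either side of 100 kb. Among collagen genes of at least 100 kb, H3K27ac was at 4 of 5 fibrillar genes and 5 of 21 others, and Pol2 at 3 and 4 of them. Among those under 100 kb, H3K27ac was at 5 of 6 fibrillar genes and 5 of 12 others, and Pol2 at 5 and 7. In the length classes under 100 kb, Pol2 was at 45.2% to 67.7% of all protein-coding genes and H3K27ac at 48.2% to 74.3%.

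**Figure D4:**
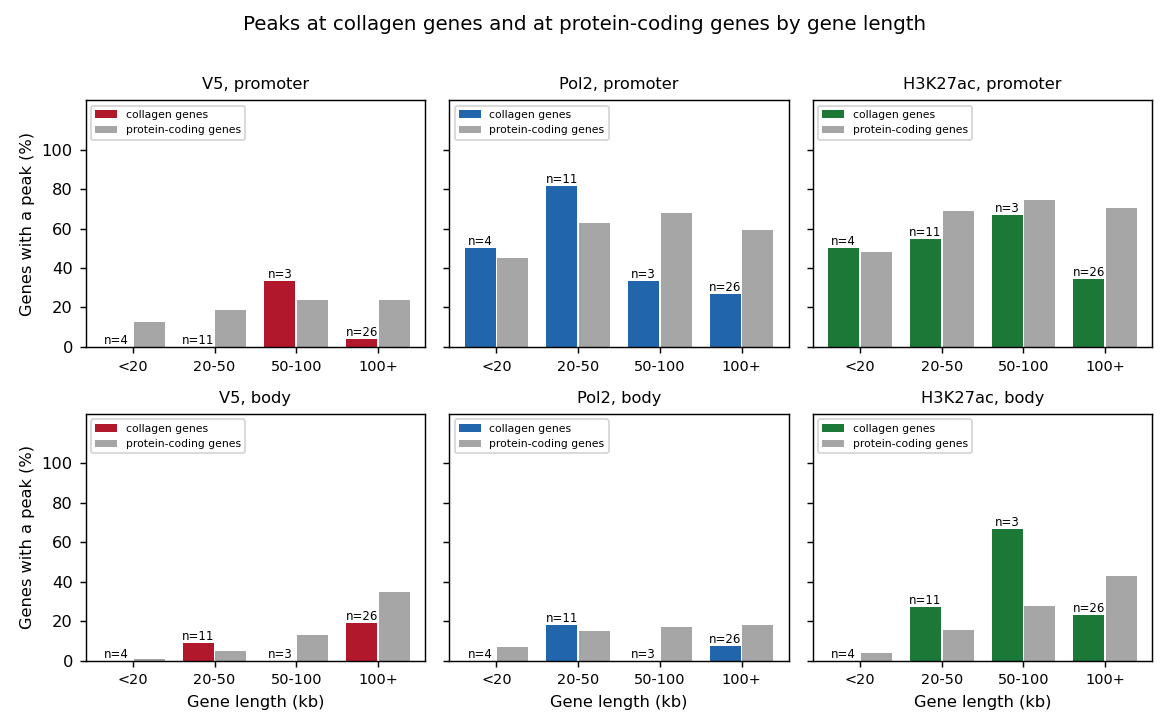
Bars give the percentage of genes with a promoter peak (upper row) or a body peak (lower row) in 4 classes of gene length in kb, for the 44 collagen genes (coloured, with the number of genes above each bar) and all protein-coding genes (grey). Among genes of at least 100 kb, the collagen bars are the lower ones in all 6 panels. Bars with 3 or 4 genes rest on very few members.

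The median score of the highest promoter peak was lower over the collagen genes than over all protein-coding genes, although single collagen genes such as Col1a1 and Col1a2 lay above the all-gene medians. The median of the highest Pol2 promoter score was 473 over the 19 collagen genes with one and 912 over 11738 protein-coding genes. For H3K27ac the medians were 490 and 863, and for V5 there were only the scores of 122 and 185, beside a median of 196. The median width of these highest-scored promoter peaks was 1.10 kb for Pol2 over the collagen genes and 1.00 kb over the protein-coding genes, and for H3K27ac it was 2.34 kb and 1.61 kb.

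The distance to the fusion was then measured from the nearest TSS of each gene to the nearest V5 peak. The median distance was 73.2 kb for the collagen genes and 75.7 kb for all protein-coding genes. A V5 peak lay within 10 kb of 9 collagen genes (20.5%, against 21.3%), within 50 kb of 15 (34.1%, against 41.3%) and within 100 kb of 28 (63.6%, against 56.0%). These shares were near those of all protein-coding genes at each distance. Among genes with both Pol2 and H3K27ac at the promoter, the median distance was 9.88 kb for 15 collagen genes and 29.9 kb for 11443 protein-coding genes. The collagen median is the value of Col23a1, whose nearest V5 peak lay in Phykpl. Col4a1 and Col4a2 share a locus but count as 2 genes, and gene length and number of TSSs were not matched. Within these 15 genes the median distance was 62.9 kb for the 7 fibrillar genes and 4.38 kb for the 8 others. Over all members the order was reversed, at 66.7 kb for the 11 fibrillar genes and 90.9 kb for the 33 others. A V5 peak lay within 100 kb of 81.8% of fibrillar and 57.6% of other collagen genes. The shares were 36.4% and 33.3% within 50 kb, and 18.2% and 21.2% within 10 kb. Col4a5, Col4a6, Col11a1 and Col22a1 lay farthest from V5, at 932, 649, 863 and 700 kb.

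The sequence under the V5 peaks of collagen genes was examined for the same motifs and for strings of TGA or TCA, counted from more than 4 repeats spaced by up to 5 bp. Of the 12 V5 peaks at collagen genes, 9 (75%, Wilson 95% interval 46.8 to 91.1) held at least 1 of these, compared with 61.0% of all V5 peaks. TGANNTCA variants were found in 8 (66.7%, against 40.3%), AP1 sites in 4 (33.3%, against 26.0%), the full CRE in 1 (8.33%, against 8.51%) and a string in 1 (8.33%, against 10.2%), the latter in Col4a1. Each of these shares rests on 12 peaks, of which 10 are body peaks. Of all distal V5 peaks, 70.9% held at least 1 motif, 49.5% a variant, 32.6% an AP1 site, 5.51% the full CRE and 13.5% a string. The median score was 168.5 over the 12 peaks and 230 over the whole V5 list. H3K27ac overlapped 9 of them (75%, against 73.4% of all V5 peaks) and Pol2 3 (25%, against 42.0%). The centres of 4 peaks, 150 bases each, are shown because they hold the full CRE, an AP1 site and 2 different variants within introns. Capitals mark the motifs, and the sequences are from GRCm38.
Col4a4 V5 peak centre, chr1:82482921-82483070, plus strand: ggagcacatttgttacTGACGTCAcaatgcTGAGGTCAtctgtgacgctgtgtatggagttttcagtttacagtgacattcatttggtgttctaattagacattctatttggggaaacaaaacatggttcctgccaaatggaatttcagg
Col16a1 V5 peak centre, chr4:130075226-130075375, plus strand: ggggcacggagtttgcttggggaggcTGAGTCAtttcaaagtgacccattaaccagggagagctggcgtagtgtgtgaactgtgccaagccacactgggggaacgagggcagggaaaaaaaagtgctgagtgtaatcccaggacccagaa
Col24a1 V5 peak centre, chr3:145448321-145448470, plus strand: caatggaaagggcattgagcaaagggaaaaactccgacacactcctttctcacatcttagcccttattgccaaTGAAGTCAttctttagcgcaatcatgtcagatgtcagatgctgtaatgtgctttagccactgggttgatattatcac
Col27a1 V5 peak centre, chr4:63310671-63310820, plus strand: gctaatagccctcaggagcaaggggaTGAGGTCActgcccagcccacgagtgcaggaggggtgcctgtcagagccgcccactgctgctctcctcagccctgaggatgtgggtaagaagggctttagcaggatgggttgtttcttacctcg

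The Col4a4 centre places the full CRE beside a variant. The Col16a1 centre holds an AP1 site without any TGANNTCA site, in the peak that overlapped Pol2 but not H3K27ac. The Col24a1 variant lies 3 bp from the middle of its peak, closer than any other motif in the 12 peaks. Col27a1, a fibrillar collagen of cartilage and other tissues, had 3 V5 peaks between 96.7 and 102 kb from its 5′ end, with scores of 174, 163 and 142, and all 3 overlapped H3K27ac peaks (359 and 87).

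The genes that build, modify, cross-link, degrade and bind collagen were counted in the same way for comparison, from a textbook list of which 55 of 56 symbols were found. V5 promoter peaks were present at 16 of 55 (29.1%), Pol2 at 38 (69.1%) and H3K27ac at 46 (83.6%), so each share was above that of the collagen genes (4.55%, 43.2% and 43.2%) and of all protein-coding genes (16.6%, 53.5% and 58.6%). Of the 38 genes with both Pol2 and H3K27ac, 16 (42.1%) had V5, and 2 of 15 (13.3%) of the collagen genes did. The 2 lists differ in the function of their genes and were not matched for gene length, and the difference between the shares was not tested.

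Synthesis and folding genes had V5 at 7 of 16, Pol2 at 13 and H3K27ac at all 16. The V5 peaks lay at P4ha1 (score 56) and P4hb (87), subunits of the prolyl hydroxylase that stabilises the triple helix, at Plod2 (265) and Plod3 (36), lysyl hydroxylases, at P3h4 (121) and Ppib (59), which act with them or in folding, and at Colgalt1 (94), a collagen galactosyltransferase. The Plod3 peak also overlapped Znhit1 and cannot be assigned to either gene. Overlap with neighbouring genes was not examined for the other V5 peaks of these lists. Serpinh1, the collagen chaperone, had Pol2 (3997) and H3K27ac (2249) without V5. Processing and crosslinking genes had V5 at 3 of 12, at Bmp1 (1079), the procollagen C-proteinase, and at the lysyl oxidase genes Lox (50) and Loxl3 (230). The degradation list holds 6 proteases and 3 metalloproteinase inhibitors (Timp1, Timp2 and Timp3). It had V5 at 0 of 9 and Pol2 at 6, namely the 3 inhibitors (scores 117, 1811 and 881) and the proteases Mmp2 (201), Mmp14 (1586) and Ctsk (117). Receptor genes had V5 at 2 of 8, Itgb1 (94) and Mrc2 (28). Associated matrix genes had V5 at 4 of 10, Fmod (1095), Fn1 (277), Thbs1 (325) and Ccn2 (67). Of the 16 scores, 10 were below the median of 196 for the highest V5 promoter peak of a gene. The nearest V5 peak to Col26a1, 104 kb upstream, was the one that overlapped Plod3 and Znhit1.

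**Figure D5:**
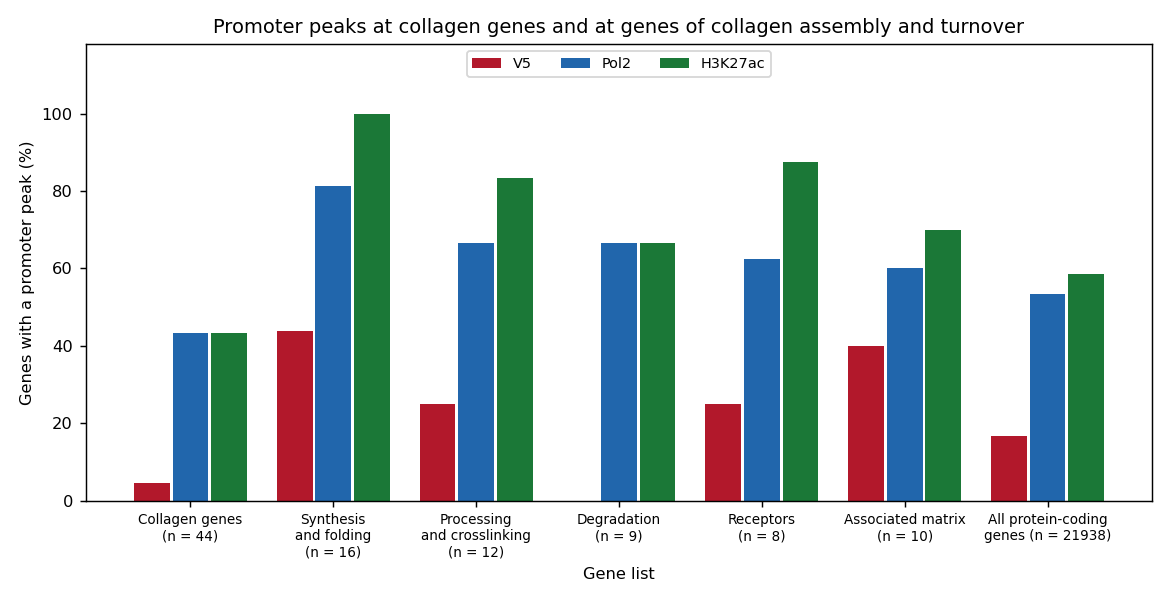
Bars give the percentage of genes with a V5, Pol2 or H3K27ac promoter peak for the 44 collagen genes, for 5 lists of genes that make, process, degrade, bind or accompany collagen, and for all protein-coding genes. V5 reached 4.55% of the collagen genes and 16.6% of all protein-coding genes, and none of the 9 genes of the degradation list, of which 3 encode inhibitors of it.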

How the data were processed

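ChIP-seq for V5, RNA polymerase II (Pol2) and H3K27ac was performed by the authors on mouse clear cell sarcomas, with input chromatin as background. The submitters' processing notes name BWA 0.7.10-r789 for alignment, MACS2 2.2.6 for peak calling and the build mm10. The authors deposited 1 pooled peak list per antibody with a whole-number score per peak, whose scale is not stated. For V5 and Pol2 the methods name more samples than the 4 labelled ones, and the samples behind each list, and the step at which they were pooled, are not stated. Depth per sample is not in the lists, and 0 columns belonged to other series. With no values per sample, no test was made.

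Genes and TSSs came from GENCODE vM21. A peak that shared at least 1 bp with the window within 3 kb of a TSS of a gene was a promoter peak of that gene, and a body peak overlapped the gene outside these windows. Wilson intervals (95%) were computed with scipy 1.17.1 under Python 3.11.15, sequence was read with pysam 0.24.0, and figures were drawn with matplotlib 3.10.9. Overlap and motif functions were first tested on simulated intervals and sequences.

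The collagen genes, classes and gene lists were chosen with earlier results of these data known. Values were given in full for collagen genes with a V5 promoter peak, for the 5 with the highest-scored promoter peak in each list, for the 5 with the largest Pol2 coverage and for pairs that share a promoter window. Genes of the lists were named where they had a V5 promoter peak, and other genes where a TSS of theirs lay in the same peak. Further genes (Sox10, Mitf, Pmel, Serpinh1, Timp1, Timp2, Timp3, Mmp2, Mmp14, Ctsk, Phykpl, Uqcrc1, Rxrb, Znhit1), the 15-kb length limit, the counts of peaks over 3′ ends, of H3K27ac peaks of at least 5 kb, of large clusters and of classes on either side of 100 kb were chosen after the values were seen. Alternatives changed the window, the TSSs, the peak overlap and the score limit. The input samples were not analysed here.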

Additional observations from a re-analysis of the deposited data

How the results depend on the processing

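The 10 counts were recomputed under 68 alternative settings in all, and 59 stayed within the 95% Wilson interval of the value reported. The remaining 9 came from 2 settings. Keeping the upper 50% of each list by score lowered the V5 promoter share of collagen genes from 4.55% to 0%, the share with all 3 lists to 0%, the V5 promoter share of the non-fibrillar genes from 6.06% to 0%, the H3K27ac promoter share from 43.2% to 29.5%, and the body shares to 4.55% for V5, 0% for Pol2 and 6.82% for H3K27ac. The shares over all protein-coding genes were not recomputed at this score limit, so these drops cannot be read as particular to collagen genes. Counting every peak over the gene span as a body peak raised the body shares to 40.9% for Pol2 and 43.2% for H3K27ac, by construction. A window of 5 kb, within the interval, raised the V5 promoter count from 2 to 6 genes, and windows of 1 kb, the TSSs of protein-coding transcripts and the 5′ end alone each left 1 (2.27%). Over all protein-coding genes the V5 promoter share was 17.9% at 5 kb, 15.2% at 1 kb and 14.3% for the 5′ end alone. No paired analysis was possible because each antibody is 1 pooled list, and no library could be left out for the same reason. The lists limit these results to peaks called in pooled data, so a weaker site below the calling threshold is not detectable.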
